A study of Mus musculus with 20 samples.

Results

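The comparison set ventral prostates of ARNoC mice against those of wild type (WT) mice when no androgen was given. Its members were the 10 of the 20 libraries of the study that came from vehicle-treated males, 5 ARNoC and 5 WT, and every gene that reached 10 normalized counts in 5 or more of them. A normalized count is the raw count scaled by the library's size factor, which evens out sequencing depth. This rule kept 14640 of 43472 counted genes, and it used levels only, not the difference between genotypes. At its edge, 249 genes reached the level in exactly 5 libraries and were tested, and 226 reached it in exactly 4 and were not.

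Both groups were orchidectomised, that is, castrated, and then received vehicle for 4 days. The WT males were C57BL/6J. The second group were ARNoC/Y males, which carry the ARNoC allele on their only X chromosome. Their background strain is not given in the labels, so effects of the allele and of the background cannot be told apart here. A genotype difference below means a difference between these groups. The other 10 libraries came from castrated males of the same 2 genotypes given testosterone for 4 days, again 5 per genotype. Total RNA of snap-frozen ventral prostate was sequenced from Illumina TruSeq libraries. Neither the age of the mice, nor the delay between surgery and treatment, nor whether each library was 1 animal is stated, so p-values here speak for the scatter of libraries, which may be partly technical. The name ARNoC is known from the field for an androgen receptor whose amino-terminal and carboxy-terminal ends cannot interact; the labels do not describe the alteration.

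The androgen receptor is a transcription factor that binds testosterone or dihydrotestosterone, enters the nucleus and binds DNA as a dimer. In the androgen-bound receptor a short motif of the amino-terminal domain docks on the ligand-binding domain at the carboxy-terminal end, which is called the N/C interaction. Castration removes testicular androgen, and the secretory epithelium of the ventral prostate then shrinks and stops most of its secretion. Without androgen the receptor is largely cytoplasmic and bound to chaperones. A comparison in castrated animals asks how the genotypes differ when little ligand is present.

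The 10 libraries held 9755006 to 16814528 counts. Every sample column matched 1 label. All 16 luminal epithelial markers counted passed the level rule, and of 10 counted seminal vesicle markers 0 did. WT library 2 and ARNoC library 5 had the 2 lowest fibroblast and matrix scores, 8.79 and 8.04 against 9.75 to 11.03 in the other 8. The score is the mean log2 of the normalized count plus 1 over the markers. They are called stroma-poor below by this score alone. By smooth muscle score ARNoC library 5 was also the lowest of the 10, at 9.01, but WT library 2, at 9.70, lay at the WT mean of 9.70. Results resting on those libraries are given with and without them below.

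Few genes differed. With edgeR's quasi-likelihood test over all 20 libraries, and Benjamini-Hochberg adjustment over all genes tested, 49 genes passed an adjusted p of 0.05, which was 0.335% of those tested. Of these, 26 were higher in ARNoC (0.178%) and 23 lower (0.157%), and 29 differed by at least 2-fold, 14 upward and 15 downward. The lower genes held the largest differences and included 4 neighbours at the distal end of the Hoxa cluster, Hoxa13, Hottip, 5730457N03Rik and Evx1. Among the higher genes the largest differences were those of Gm12873, H2-Q10 and Muc19. Differences are on the log2 scale, ARNoC minus WT, throughout. At an unadjusted p of 0.05, 1102 genes passed. The median log2 difference of all genes was 0.00 when rounded, and 49.2% of genes were higher in ARNoC.

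For 44 of the 49 called genes the 5 ARNoC libraries did not overlap the 5 WT libraries, a property that 258 of all tested genes had (1.76%). The overlapping 5 were Fabp5, RP23-329P9.12, Naip5, Spink5 and Proc. The genes were called from these same libraries, which favours such a separation, so it is no separate support for any call. Leaving out a library changed the number called: 28 without WT library 4, 30 without ARNoC library 1 and 32 without ARNoC library 5. The call was kept in all 10 such fits by 26 of the 49 genes, 12 lower and 14 higher. Fitting the 10 vehicle libraries alone, with their own spread, gave 18 genes, of which 16 were among the 49, 9 lower and 7 higher; the other 33 were lost. The 9 were 5730457N03Rik, Hottip, Hoxa13, Grik2, Wscd1, Dapl1, Tyw1, Eya2 and Txndc16, and among the 7 were Gm12873, H2-Q10, Pdzk1, Slc16a12, Doc2b and Iqgap2. Leaving out the stroma-poor WT library 2 and ARNoC library 5 together gave 36 genes, 32 of them among the 49. In all 22 alternatives every one of the 49 genes that could be fitted kept its direction. These fits reuse the vehicle libraries by which the genes were picked, so a kept direction was likely beforehand and is no independent support.

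**Figure D1:**
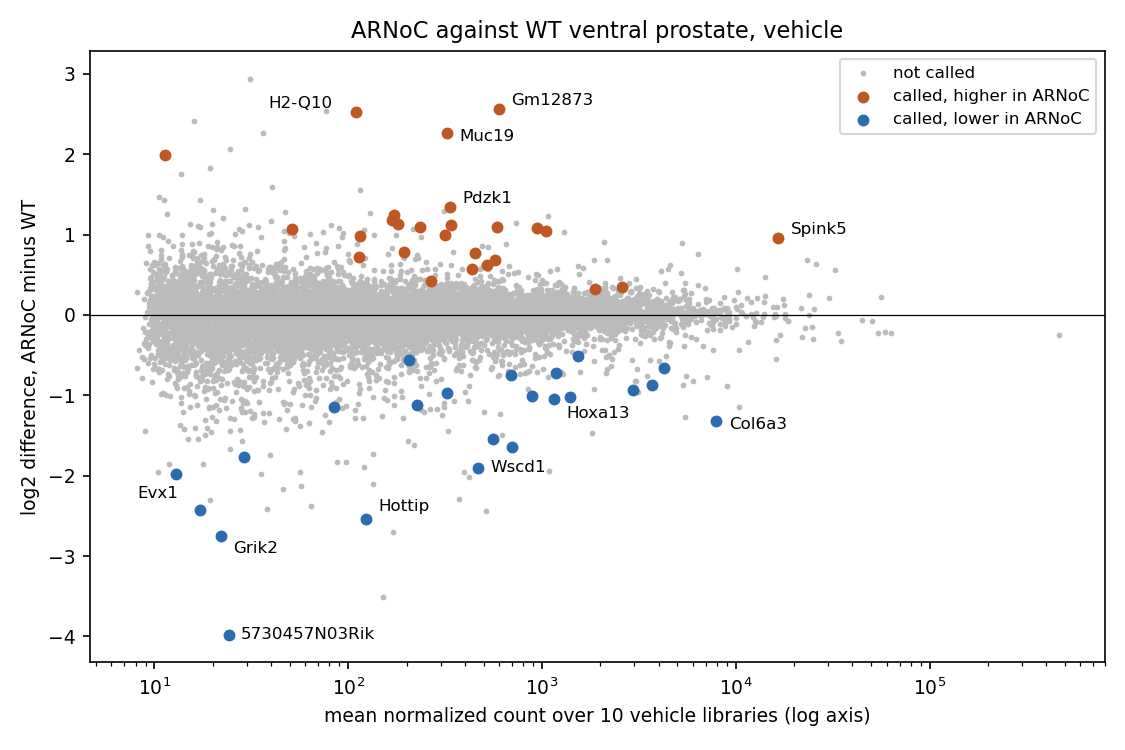
Log2 difference between ARNoC and WT with vehicle against the mean normalized count over the 10 vehicle libraries (log axis), 1 point per tested gene; coloured points are the 26 genes called higher and the 23 called lower. Most genes lie near 0, and the largest called differences are those of 5730457N03Rik, at -3.98, and Gm12873, at 2.56.

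A block of 4 neighbouring genes fell at one end of the Hoxa cluster on chromosome 6. Hox genes are homeobox transcription factors laid out in clusters, and those at the 5′ end, Hoxa13 last of all, pattern the distal limb and the lower genitourinary tract, the prostate included. Hottip is a noncoding RNA read from the distal tip, divergently from Hoxa13, and is known for holding active chromatin over the neighbouring Hox genes. Evx1, an even-skipped homeobox gene, follows, with 5730457N03Rik, named Evx1os in RefSeq, read from the opposite strand across its start.

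In the mm10 build Hoxa13 lies at chr6:52257694-52260880 on the minus strand and Hottip at chr6:52262775-52267603 on the plus strand. 5730457N03Rik covers chr6:52308389-52314832 on the minus strand and Evx1 chr6:52313498-52318378 on the plus strand. The last pair overlap, and whether the counting used strand is not given in the sources used here, so their reads cannot be told apart where they overlap. The 300 bases around each start, 250 before and 50 after, are shown because these are the start regions of the genes of the block that fell; they are RefSeq sequences of GRCm38.p6, which is mm10, read 5′ to 3′ along each gene, with CpG dinucleotides in capitals.
Hoxa13: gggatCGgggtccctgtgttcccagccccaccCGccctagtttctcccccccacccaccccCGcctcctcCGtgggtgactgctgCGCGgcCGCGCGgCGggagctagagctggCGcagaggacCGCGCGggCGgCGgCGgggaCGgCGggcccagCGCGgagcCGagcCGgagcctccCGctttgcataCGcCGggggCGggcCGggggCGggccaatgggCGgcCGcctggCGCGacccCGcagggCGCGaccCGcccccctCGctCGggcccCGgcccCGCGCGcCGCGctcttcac
Hottip: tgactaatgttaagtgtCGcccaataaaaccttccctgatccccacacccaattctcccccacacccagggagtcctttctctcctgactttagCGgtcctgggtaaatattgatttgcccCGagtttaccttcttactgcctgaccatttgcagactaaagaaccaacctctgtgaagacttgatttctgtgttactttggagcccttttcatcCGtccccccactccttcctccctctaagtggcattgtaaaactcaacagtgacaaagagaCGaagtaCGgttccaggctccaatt
Evx1: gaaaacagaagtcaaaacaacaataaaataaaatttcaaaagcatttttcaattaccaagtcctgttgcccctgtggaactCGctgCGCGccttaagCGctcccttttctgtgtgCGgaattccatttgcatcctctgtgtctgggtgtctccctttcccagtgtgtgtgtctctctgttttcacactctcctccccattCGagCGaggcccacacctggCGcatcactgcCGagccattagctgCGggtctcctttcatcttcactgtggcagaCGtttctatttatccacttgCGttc
5730457N03Rik: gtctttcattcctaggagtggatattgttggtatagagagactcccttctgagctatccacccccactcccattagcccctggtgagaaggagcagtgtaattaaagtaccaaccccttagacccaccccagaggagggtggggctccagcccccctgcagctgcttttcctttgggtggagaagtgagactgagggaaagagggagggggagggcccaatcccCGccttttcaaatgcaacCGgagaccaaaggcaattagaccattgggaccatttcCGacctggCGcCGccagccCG
The windows are chr6:52260831-52261130 (minus strand), chr6:52262525-52262824 (plus), chr6:52313248-52313547 (plus) and chr6:52314783-52315082 (minus). That of Hoxa13 is 81.0% G and C with 45 CpG. Those of Hottip (47.7%, 6 CpG), Evx1 (48.7%, 12 CpG) and 5730457N03Rik (56.3%, 6 CpG) lie nearer the medians of all 32851 RefSeq windows, 52.7% and 7 CpG. None of the 4 holds AGAACA or TGTTCT, the 6-letter half-site of steroid receptors searched on both strands.

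5730457N03Rik had 40.3, 42.8, 58.8, 36.1 and 48.99 normalized counts in the WT libraries and 2.88, 0.633, 2.28, 4.18 and 4.63 in the ARNoC libraries. It was near its lower limit in every ARNoC library, and the groups stood far apart. The mean was 45.4 ± 8.83 in WT and 2.92 ± 1.59 in ARNoC (SD, n = 5 each), a log2 difference of -3.98 (SE 0.41, edgeR adjusted p 4.55e-05).

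Hottip had 151.9, 250.2, 272.6, 181.6 and 192.8 normalized counts in WT and 25.9, 18.4, 28.9, 67.0 and 41.7 in ARNoC. ARNoC library 4 was the highest of its group and still below every WT library. The mean fell from 209.8 ± 50.1 to 36.4 ± 19.1 (SD, n = 5 each), a log2 difference of -2.54 (SE 0.33, adjusted p 0.000466).

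Hoxa13 had 1342, 1801, 1553, 1567 and 1512 normalized counts in WT and 597.4, 708.0, 632.3, 1091 and 731.6 in ARNoC. ARNoC library 4 was again the highest of its group, and no libraries overlapped between groups. The mean fell from 1555 ± 164.3 to 752.1 ± 197.2 (SD, n = 5 each), a log2 difference of -1.05 (SE 0.13, adjusted p 0.000304).

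Evx1 was lowly counted, at 30.0, 16.5, 47.2, 31.5 and 19.2 in WT and 3.60, 1.90, 6.84, 11.5 and 3.70 in ARNoC. The groups did not overlap, and WT library 2 came nearest to the highest ARNoC library, number 4. The log2 difference was -2.43 (SE 0.50, adjusted p 0.0365). This call was kept without WT library 2, WT library 5 or ARNoC library 4 and was lost without any of the other 7, with an adjusted p up to 0.124 (log2 difference -2.31, without ARNoC library 1). Without both stroma-poor libraries its adjusted p was 0.0742. The calls of 5730457N03Rik, Hottip and Hoxa13 were kept in each of these fits.

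Moving inward from Hoxa13, the differences became smaller. Of 18 counted genes on the list of this cluster, 11 were tested, and 4 fell and 0 rose; 9 of the 11 differences were negative, with a median of -0.30 against 0.00 for all genes. The antisense transcript Hoxa11os, which overlaps Hoxa11, had a mean of 2532 in WT and 1758 in ARNoC and no overlap between groups, but missed the threshold (log2 difference -0.52, SE 0.12, adjusted p 0.0746). It passed without ARNoC library 4 (-0.59, adjusted p 0.0487). Hoxa11 differed by -0.30, Hoxa10 by -0.26, Hoxa9 by -0.19, Hoxa7 by 0.13, Hoxa5 by -0.12 and Hoxa3 by 0.17 on the log2 scale, none of them past the test. The short transcripts Gm27817 and Gm27454, which lie within Hoxa11os and were named after their values were seen, differed by -0.38 and -0.84, also without passing. The other 7 genes of the list did not reach the level rule, with highest values of 1.06 (5730596B20Rik) to 12.6 (Hoxa2) normalized counts in any vehicle library; among the others were Hoxa4, Hoxa6, Hotairm1 and Hoxaas3.

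Beyond Evx1 no gene within 1 Mb passed the test. Gm8129, 33.4 kb past the start of Evx1, differed by 0.06, Hibadh at 326.9 kb by -0.02 and Tax1bp1 at 400.2 kb by -0.17, none past the test. On the other side Skap2 differed by -0.20. Within 1 Mb of the cluster 4 of 22 tested genes were called (18.2%). Of 16 tested genes of the Hoxb, Hoxc and Hoxd clusters 0 were called (0 also at an unadjusted p of 0.05), with a median of 0.14; Hoxb13, a receptor partner in prostate cells, differed by 0.23 and Hoxd13 by 0.14. By DESeq2 Hoxa11os also passed.

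**Figure D2:**
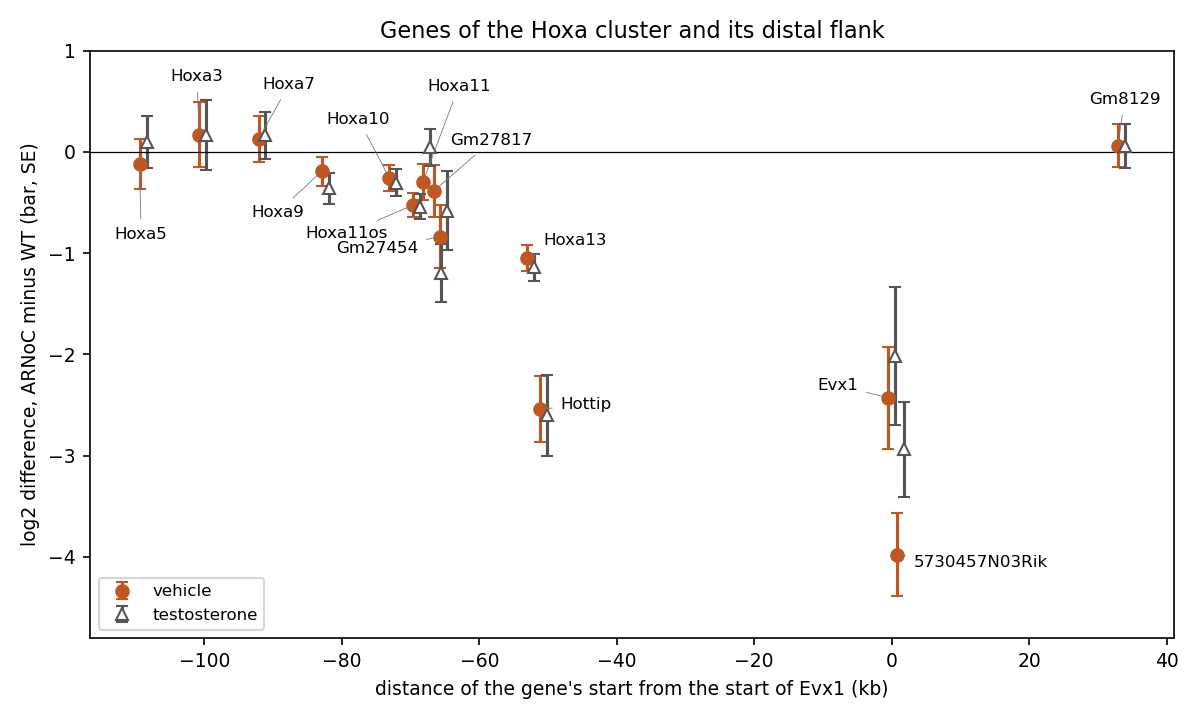
Log2 difference, ARNoC minus WT, with its SE, against the distance of each gene's start from the start of Evx1 in kb, for vehicle (circles) and testosterone (triangles). The protein-coding genes from Hoxa3 to Hoxa11 lie between -0.30 and 0.17 with vehicle, Hoxa13 is at -1.05, Hottip, Evx1 and 5730457N03Rik lie between -2.43 and -3.98, and Gm8129 beyond them is at 0.06.

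Outside the Hoxa block 19 genes were lower in ARNoC, among them a glutamate receptor subunit, a collagen chain, a vascular ligand and a lipid-binding protein. Grik2, which encodes a kainate receptor subunit, had 37.2, 39.5, 49.7, 38.0 and 28.8 normalized counts in WT and 1.44, 12.7, 5.32, 3.14 and 4.63 in ARNoC. ARNoC library 2 was the highest of its group. The log2 difference was -2.75 (SE 0.37, adjusted p 0.000636), and -3.37 without that library.

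Wscd1, a gene for a membrane protein with WSC domains, had 687.0, 601.5, 860.0, 655.0 and 863.8 normalized counts in WT. In ARNoC it had 148.8, 160.9, 239.4, 207.1 and 227.8. Every ARNoC library was below every WT library by a wide margin. The mean fell from 733.4 ± 121.2 to 196.8 ± 40.2 (SD, n = 5 each), a log2 difference of -1.90 (SE 0.19, adjusted p 4.55e-05). It was 1 of 11 genes called in every alternative run.

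Txndc16, a thioredoxin-domain gene whose product resides in the endoplasmic reticulum, had 875.0, 939.5, 839.2, 819.0 and 877.6 in WT and 510.4, 557.3, 479.5, 600.5 and 427.8 in ARNoC. Both groups were tight, and they were far apart for a modest difference of -0.75 (SE 0.09, adjusted p 0.000304). Tyw1, an enzyme of wybutosine formation in transfer RNA, had 1131, 1101, 1242, 1344 and 1148 in WT and 631.9, 633.9, 810.9, 406.9 and 476.0 in ARNoC. It fell in every ARNoC library, by -1.01 in the fit (SE 0.17, adjusted p 0.00785). Both were called in every alternative.

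Col6a3, the alpha-3 chain of collagen VI made by fibroblasts, had 6020, 11820, 9614, 10690 and 18510 normalized counts in WT and 4225, 5999, 4320, 4841 and 3393 in ARNoC. WT library 1 lay just above the highest ARNoC library, so the groups met without overlapping. The log2 difference was -1.32 (SE 0.24, adjusted p 0.0136). The partner chains Col6a1, at -0.40, and Col6a2, at -0.57, did not pass. The call was lost without ARNoC library 1 (-1.28, adjusted p 0.0533), without ARNoC library 5 and without both stroma-poor libraries (-1.21, adjusted p 0.0909). With the fibroblast and matrix score of each library as a covariate it was kept (-1.28, adjusted p 0.00805). Col6a3 is itself among the markers of that score, so the covariate is not independent of it.

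Fabp5, the gene of a fatty acid binding protein, had 1568, 548.8, 862.4, 1266 and 1088 normalized counts in WT and 317.0, 588.3, 380.0, 142.3 and 273.2 in ARNoC. WT library 2 lay below ARNoC library 2, so the groups overlapped, with a log2 difference of -1.65 (SE 0.29, adjusted p 0.00851). Processed pseudogenes of Fabp5 could share its reads.

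Angpt2, a ligand of the endothelial Tie2 receptor, had 101.2, 87.8, 99.4, 164.9 and 125.7 normalized counts in WT and 51.8, 58.9, 45.6, 69.0 and 37.0 in ARNoC. The groups did not overlap, and the log2 difference was -1.14 (SE 0.20, adjusted p 0.0102). Slc39a8, a zinc and manganese importer, had 4084, 3286, 3855, 4451 and 3591 in WT and 1518, 2542, 1513, 2763 and 1742 in ARNoC. It fell in every ARNoC library (-0.93, SE 0.17, adjusted p 0.015), and its call was lost without WT library 4, ARNoC library 1 or ARNoC library 5, with an adjusted p up to 0.0533. Fewer cells of a type and less message per cell cannot be told apart in whole tissue, for these and all other genes.

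The remaining lower genes with a mean of at least 50 in WT ran from -1.12 to -0.51. Naip5, an inflammasome sensor of flagellin with a close paralogue that could share its reads, differed by -1.02, and its call was lost in 6 of the 10 fits that left out a library (adjusted p up to 0.0816) and with the vehicle libraries alone (0.124). Eya2, a phosphatase and transcriptional coactivator, differed by -0.98; its call was lost in 7 of them (up to 0.0805) but kept with the vehicle libraries alone (0.024). Qsox1, a secreted sulfhydryl oxidase, differed by -0.88, and RP23-329P9.12, a gene model without coordinates here, by -1.12. Smad4, the shared partner of the TGF-beta and BMP Smads, fell from a mean of 5192 to 3290 (-0.66, SE 0.11, adjusted p 0.00425) and kept its call in every fit that left out a library, but not with the vehicle libraries alone (0.101). The interleukin 13 receptor gene Il13ra1 (-0.72), the ciliogenesis kinase gene Ttbk2 (-0.56) and Lurap1l (-0.51) completed these, with Il13ra1 lost in 5 of 10 fits (up to 0.109).

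Cd200r2, of the CD200 receptor family, and Dapl1 had means under 50 in WT. Cd200r2 fell from 20.5 to 5.27 (-1.98, adjusted p 0.0179) and was lost without WT library 4 (-1.75, adjusted p 0.075) or ARNoC library 1. Dapl1 fell from 44.8 to 13.1 (-1.77, adjusted p 0.00906) and kept its call without any one library. These 2, with Grik2, Txndc16, Smad4, Il13ra1, Ttbk2 and Lurap1l, the partner chains of Col6a3 and the genes that flank the Hoxa cluster, are outside the naming rule and were named after their values were seen.

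Of the 26 genes higher in ARNoC, the largest differences were those of Gm12873, annotated as an unprocessed pseudogene, and H2-Q10, which encodes a secreted class I major histocompatibility molecule. Both belong to families of similar sequence, so reads could be shared and their values are uncertain. Gm12873 had 165.3, 228.3, 77.9, 262.2 and 140.6 normalized counts in WT and 1187, 1204, 1166, 541.9 and 1022 in ARNoC. ARNoC library 4 was the lowest of its group and still above every WT library. The log2 difference was 2.56 (SE 0.37, adjusted p 0.0016).

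H2-Q10 had 40.3, 29.6, 24.9, 32.4 and 37.3 normalized counts in WT and 273.2, 161.5, 206.7, 82.6 and 209.3 in ARNoC. ARNoC library 4 was once more the nearest to WT. The log2 difference was 2.52 (SE 0.43, adjusted p 0.00785), and without both stroma-poor libraries the adjusted p was 0.052. Among the 43 tested genes of interferon response and antigen presentation 0 were called (2 at an unadjusted p of 0.05), with a median of -0.13; the most abundant, H2-K1 and H2-D1, did not pass.

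Muc19, a gel-forming mucin, had 166.3, 127.3, 15.7, 150.1 and 99.1 normalized counts in WT and 985.6, 345.1, 532.0, 428.9 and 370.4 in ARNoC. The groups did not overlap, but both spread widely. The log2 difference of 2.27 (SE 0.49) passed narrowly, at an adjusted p of 0.0499. It passed only without ARNoC library 2 or ARNoC library 4 among the 10 fits that left out a library, with an adjusted p up to 0.17 (1.92, without ARNoC library 1).

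Several genes of membrane transport rose, while the importer gene Slc39a8 (-0.93) and the kainate receptor gene Grik2 (-2.75), given above, fell. Pdzk1, a scaffold for transporters at the apical membrane, had 190.1, 214.0, 202.1, 191.8 and 148.0 normalized counts in WT and 497.5, 452.8, 370.1, 572.2 and 511.2 in ARNoC. Every ARNoC library was well above WT (log2 difference 1.34, SE 0.17, adjusted p 0.000304). Slc16a12, a monocarboxylate transporter family member that carries creatine, had 122.9, 99.9, 82.0, 114.9 and 96.9 in WT and 245.1, 266.6, 149.0, 235.4 and 278.7 in ARNoC. ARNoC library 3 was its lowest, and the groups did not overlap (1.18, SE 0.19, adjusted p 0.00419). Both were called in every alternative. The group is a description formed after the values were seen, not a list that was tested.

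Kcnn4, a calcium-activated potassium channel, had 145.7, 155.9, 159.9, 115.8 and 170.4 normalized counts in WT and 209.2, 286.9, 393.7, 279.3 and 422.3 in ARNoC. The groups did not overlap (log2 difference 1.09, SE 0.16, adjusted p 0.00217). Gabra4, the alpha-4 subunit of the GABA-A chloride channel, rose from a mean of 113.4 to 248.2 (1.13, SE 0.19, adjusted p 0.00785). Atp6v1c2, a subunit of the proton pump, rose from 102.9 to 241.1 (1.24, SE 0.24, adjusted p 0.0178). Its call was lost in 5 of the 10 fits that left out a library, with an adjusted p up to 0.0753.

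Doc2b, a calcium sensor of regulated exocytosis, had 137.4, 161.3, 135.9, 140.8 and 140.6 normalized counts in WT and 220.0, 256.5, 237.1, 212.4 and 307.4 in ARNoC. The WT values were tight, and every ARNoC library was above them (log2 difference 0.79, SE 0.10, adjusted p 0.000528). It too was called in every alternative. Doc2b, Gpr126, 9130409J20Rik, Col7a1, Ror2, Tesk2, Prlr, B4galnt2, Proc and C430042M11Rik are outside the naming rule and were named after their values were seen.

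Spink5, which encodes a secreted inhibitor of kallikrein-type proteases, had 10720, 12930, 15450, 8716 and 8700 normalized counts in WT and 22340, 25880, 15280, 20360 and 25620 in ARNoC. WT library 3 lay just above ARNoC library 3, so the groups overlapped. The log2 difference was 0.96 (SE 0.18, adjusted p 0.015). The call was lost without WT library 4 (adjusted p 0.0608), WT library 5 or ARNoC library 5, and without both stroma-poor libraries (0.0586).

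Other genes with differences near 1 were B4galnt2, a glycosyltransferase of terminal sugars (0.99, adjusted p 0.00234), Plekhs1 (1.08, adjusted p 0.0129), Dnase1l2, a deoxyribonuclease (1.10, adjusted p 0.00309), Degs2, an enzyme of phytoceramide synthesis (1.12, adjusted p 0.0241), and Rgs7bp, an anchor of G-protein regulators (1.06, adjusted p 0.015). Degs2 lost its call in 6 of 10 fits that left out a library, with an adjusted p up to 0.0975. Rgs7bp lost it in 3, up to 0.0581. The noncoding RNA C430042M11Rik rose from a mean of 4.47 to 18.3 (1.99, adjusted p 0.0016), and the anticoagulant gene Proc, known from liver, from 77.8 to 153.4 (0.98, adjusted p 0.0368). Proc lost its call in 8 of 10 fits (up to 0.124).

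Smaller rises passed where the libraries were tight. Gpr126, an adhesion receptor, had 318.4 to 391.8 normalized counts in WT and 435.1 to 604.6 in ARNoC (0.57, adjusted p 0.0016). 9130409J20Rik rose by 0.63 (adjusted p 0.00229). Prlr, the prolactin receptor, had 1598 to 1741 in WT and 1908 to 2400 in ARNoC (0.32, adjusted p 0.0478), and was called in 1 of 10 fits that left out a library. Col7a1 (0.77), Tesk2 (0.68), Ror2 (0.73) and Zbtb16 (0.42) kept their calls in 2, 2, 4 and 2 of those 10 fits.

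**Figure D3:**
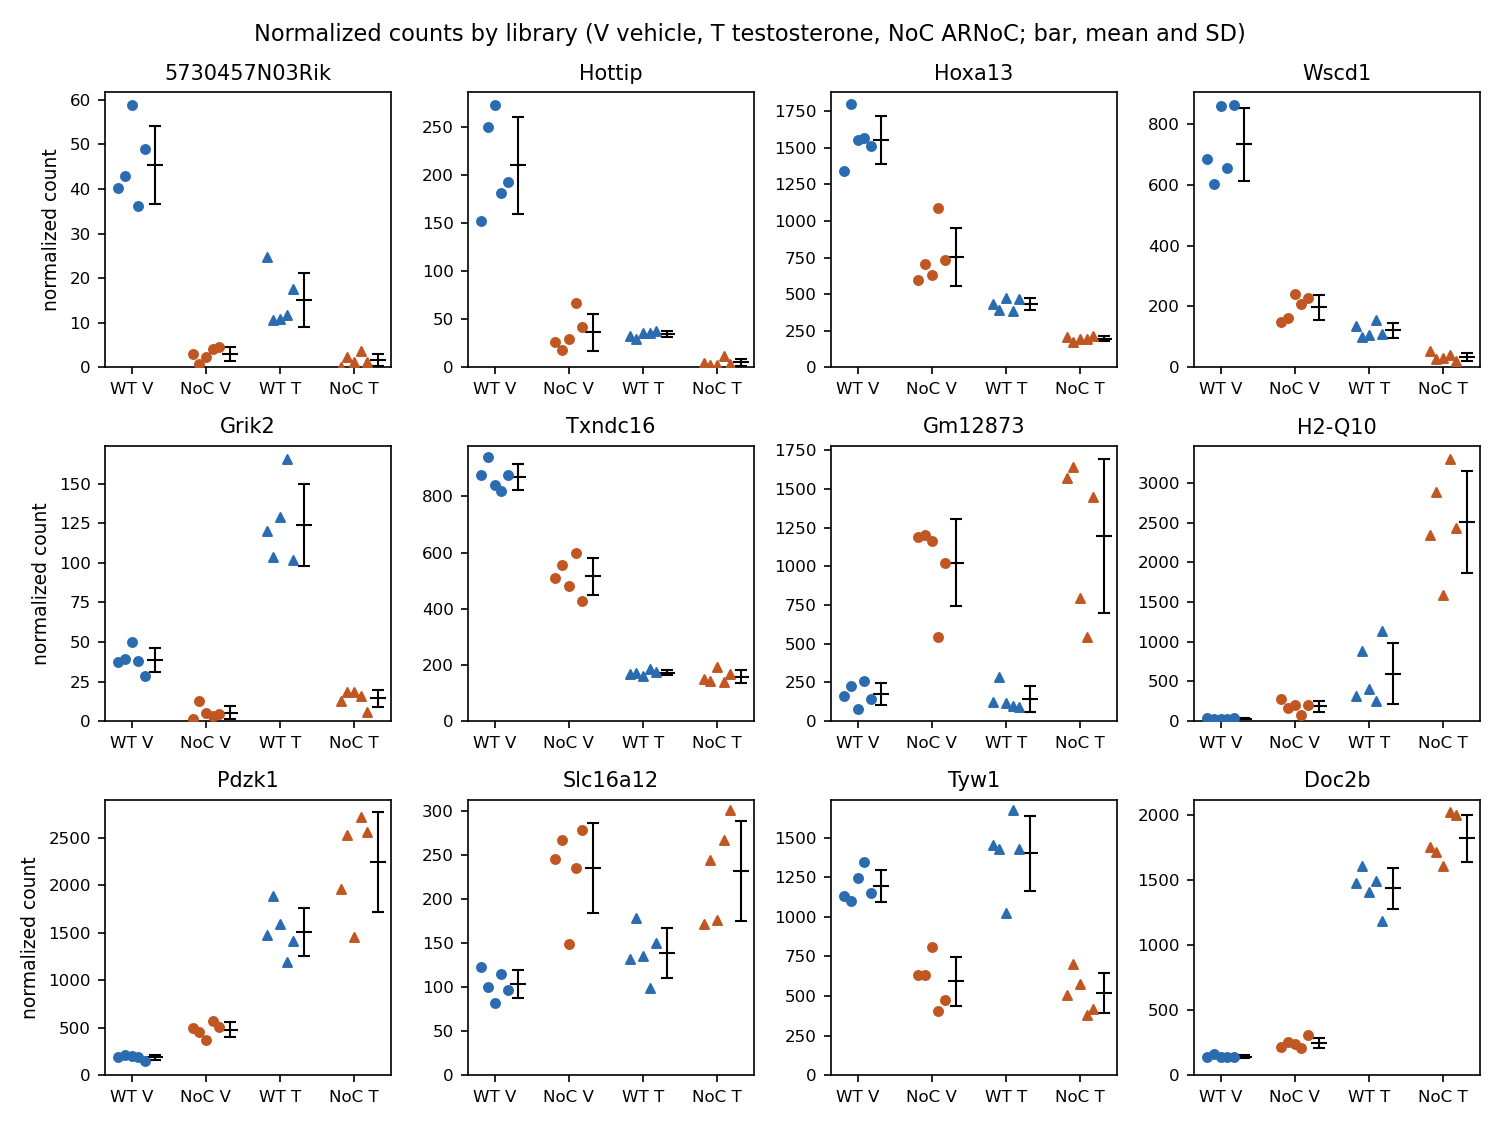
Normalized counts of 12 genes in each library, circles for vehicle and triangles for testosterone, blue for WT and orange for ARNoC, with mean and SD (n = 5) beside each group. With vehicle the 2 genotypes do not overlap for any of the 12; Hoxa13 and Gm12873 of ARNoC library 4, at 1091 and 541.9, lie nearest to WT.

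One library in each group sat nearest the other genotype more often than the rest. Among the 49 called genes ARNoC library 4 had the ARNoC value closest to WT in 22, against 3, 12, 8 and 4 for libraries 1, 2, 3 and 5. WT library 2 had the WT value closest to ARNoC in 21, against 11, 6, 6 and 5 for libraries 1, 3, 4 and 5. Without ARNoC library 4, 70 genes were called, 48 of them among the 49. The part of either library in the differences beyond these counts was not tested.

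Among androgen-responsive genes the calls were all upward. Of 76 tested genes 3 were higher and 0 lower, Iqgap2 and Zbtb16 among them, where 0.335% of all genes were called. At an unadjusted p of 0.05, 20 of the 76 passed, against 7.53% of all genes. Of the differences 38 were positive and 38 negative, and the median was 0.00 when rounded, as it was for all genes. Iqgap2, a scaffold protein gene, had 2185 to 2354 normalized counts in WT and 2699 to 3159 in ARNoC (log2 difference 0.35, SE 0.07, adjusted p 0.0174). Zbtb16, the PLZF repressor gene, had 198.3 to 260.9 in WT and 269.9 to 354.0 in ARNoC (0.42, SE 0.09, adjusted p 0.0368). Neither pair of groups overlapped.

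Fkbp5, a receptor cochaperone gene and standard readout of androgen action, had 1491, 1843, 1434, 1588 and 1481 normalized counts in WT and 1859, 1787, 1727, 1429 and 1664 in ARNoC. The groups overlapped, and the log2 difference was 0.11 (SE 0.10, adjusted p 0.906). Pbsn, which encodes the secreted protein probasin, ranged from 233.6 to 3192 in WT and from 916.4 to 4252 in ARNoC (0.69, SE 0.61, adjusted p 0.906; 1.37 without both stroma-poor libraries). Its libraries spread more than 10-fold within WT. Odc1, the first enzyme of polyamine synthesis, had 283.3 to 420.9 in WT and 332.7 to 472.3 in ARNoC (0.19, adjusted p 0.809).

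Spink3, an androgen-dependent trypsin inhibitor of the secretion, had 1797, 5519, 4043, 4439 and 2643 normalized counts in WT and 6393, 5909, 3122, 4449 and 14440 in ARNoC. The groups overlapped, and the log2 difference of 0.89 did not pass (SE 0.33, adjusted p 0.446) and was 0.43 without ARNoC library 5. Clu, which rises on castration, ranged from 6774 to 10550 in WT and from 6157 to 24940 in ARNoC (0.57, adjusted p 0.669), and without ARNoC library 4 the difference was 0.13. Mki67, a marker of dividing cells, ranged from 48.3 to 132.6 in WT and from 35.2 to 181.0 in ARNoC (0.04, adjusted p 0.996). Car2, a carbonic anhydrase gene, had 15070 to 25780 in WT and 10500 to 17310 in ARNoC (-0.54, SE 0.19, adjusted p 0.363). None of these 7 genes passed, and SEs as large as 0.66 leave sizeable differences possible.

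The receptor's own machinery showed 0 calls among 16 tested steroid receptor and chaperone genes (1 at an unadjusted p of 0.05), with a median of -0.01 and a range of -0.37 to 0.11. Hsp90ab1, the most abundant, was among them. Of 31 coregulators and pioneer factors 1 was higher, and Foxa1 and Hoxb13 did not pass (median 0.01). Of 28 glucocorticoid-responsive genes 1 was higher, Zbtb16 (median 0.01). Of 24 regulators of urogenital development 1 was higher, and Tbx3 did not pass (median 0.01). Of 13 tested genes of androgen synthesis and inactivation 0 were called (0 at an unadjusted p of 0.05, median 0.07), Hsd17b10 and Hsd17b4 included.

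Of 22 tested secretory products of the mouse prostate 1 was higher, Spink5, and 1 lower, Qsox1, where 0.335% of all genes were called. Of the 22 differences 16 were positive and 6 negative, with a median of 0.17. At an unadjusted p of 0.05, 6 of the 22 passed, against 7.53% of all genes. Sbp and Sbpl, abundant spermine-binding proteins, were not called. Of 74 genes of protein folding and export from the endoplasmic reticulum 0 were called (2 at an unadjusted p of 0.05), with 54 positive differences and a median of 0.04, and P4hb and Hspa5 did not pass. Of 26 genes of zinc and citrate handling 1 was lower, Slc39a8 (median -0.01). Polyamine genes (20 tested, median 0.06; Mat2a and Sat1 the most abundant) showed 0 calls and 2 at an unadjusted p of 0.05.

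Most lipid genes had negative differences, none past the test. Of 25 cholesterol synthesis genes 20 were negative, with a median of -0.13, and 0 were called (2 at an unadjusted p of 0.05; Scap and Stard4 the most abundant). Of 24 fatty acid synthesis genes 19 were negative, with a median of -0.23, and 0 were called (3 at an unadjusted p of 0.05; Scd2 and Scd1). The median of all genes was 0.00. Along with them the adipocyte markers were all negative, 12 of 12, with a median of -0.82; their part in the lipid genes was not tested.

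Lists of proliferation and housekeeping genes held 0 calls each, which at 0.335% of all genes called says little about lists of this size. Their medians were -0.02 for 39 S phase genes (Mcm6), -0.04 for 32 genes of G2 and mitosis (Top2a, Anln), -0.03 for 41 of ribosome biogenesis (Ncl, Npm1), -0.03 for 50 ribosomal proteins (Rpl4, Rps3) and 0.03 for 48 of oxidative phosphorylation (Atp5b, Atp5a1). At an unadjusted p of 0.05, where 7.53% of all genes passed, these held 1, 0, 0, 0 and 1 genes. The stress response list (28, median 0.01; Nupr1, Wars), immediate-early genes (24, median -0.07; Fosl2, Klf6), regression and apoptosis genes (39, median -0.08; Ctsd, Clu) and stromal growth factors (37, median 0.01; Egf, Fgf1) also gave 0 calls, with 5, 2, 5 and 4 genes at an unadjusted p of 0.05. In brackets are members with the highest mean in each list.

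Cell-type markers gave 2 calls in all, 1 luminal marker and Col6a3. Of 16 luminal markers 1 was higher (median 0.04; Krt19 and Krt18 did not pass), and of 14 basal markers 0 were called (2 at an unadjusted p of 0.05, median -0.08; Krt15). Of 15 markers of proximal luminal and progenitor cells 0 were called, with a median of 0.31 that became -0.02 without ARNoC library 4, -0.06 without ARNoC library 5 and -0.07 without both stroma-poor libraries (Krt19, Clu). Of 30 fibroblast and matrix markers 1 was lower, Col6a3 (median -0.15), and 21 smooth muscle markers had a median of 0.15 and 0 calls (1 at an unadjusted p of 0.05; Flna, Tagln).

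All 22 endothelial markers were negative, with a median of -0.55 and 0 calls (2 at an unadjusted p of 0.05; Cd34, Aqp1). All 24 macrophage markers were negative as well, with a median of -0.34 and 0 calls (2 at an unadjusted p of 0.05; Lyz2, C1qb). All 5 erythroid markers were negative (median -1.11, 0 calls; Hbb-bs, Alas2), as were 10 of 15 lymphocyte (-0.14, and -0.77 with a filter of 50 normalized counts; Ighm, Igkc) and 6 of 7 mesothelial markers (-0.40; Krt19, Upk3b). Markers of a cell type move together within a library, so their shared sign is no count of independent genes. The 18 skeletal muscle markers had a median of -1.11 and 0 calls (Acta1, Myh4), while their mean score was higher in ARNoC by 0.65, and WT library 5 had the highest score, 9.64. The nerve and glia (6 tested, median 0.02; Mbp), urothelium (3, median 0.09; Upk1a, Upk1b) and neuroendocrine markers (Syp alone, -0.40) gave 0 calls.

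As scores per library no cell type differed beyond the spread. The endothelial score was 7.23, 6.19, 6.03, 7.17 and 7.89 in WT and 6.69, 6.62, 6.66, 6.96 and 5.25 in ARNoC (exact two-sided permutation p 0.357, n = 5 each). The groups overlapped, with ARNoC library 5 the lowest. The fibroblast and matrix score was 8.79 to 11.03 in WT and 8.04 to 10.8 in ARNoC (exact permutation p 0.69). The adipocyte score was 7.04 to 10.8 in WT and 6.97 to 10.1 in ARNoC (exact permutation p 0.444). Over 14 cell-type scores and 2 library measures the smallest exact p was 0.0238, for the share of mitochondrial counts (2.27% in WT, 1.95% in ARNoC), and its Benjamini-Hochberg adjusted value was 0.381; 5 against 5 can reach 0.00794.

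**Figure D4:**
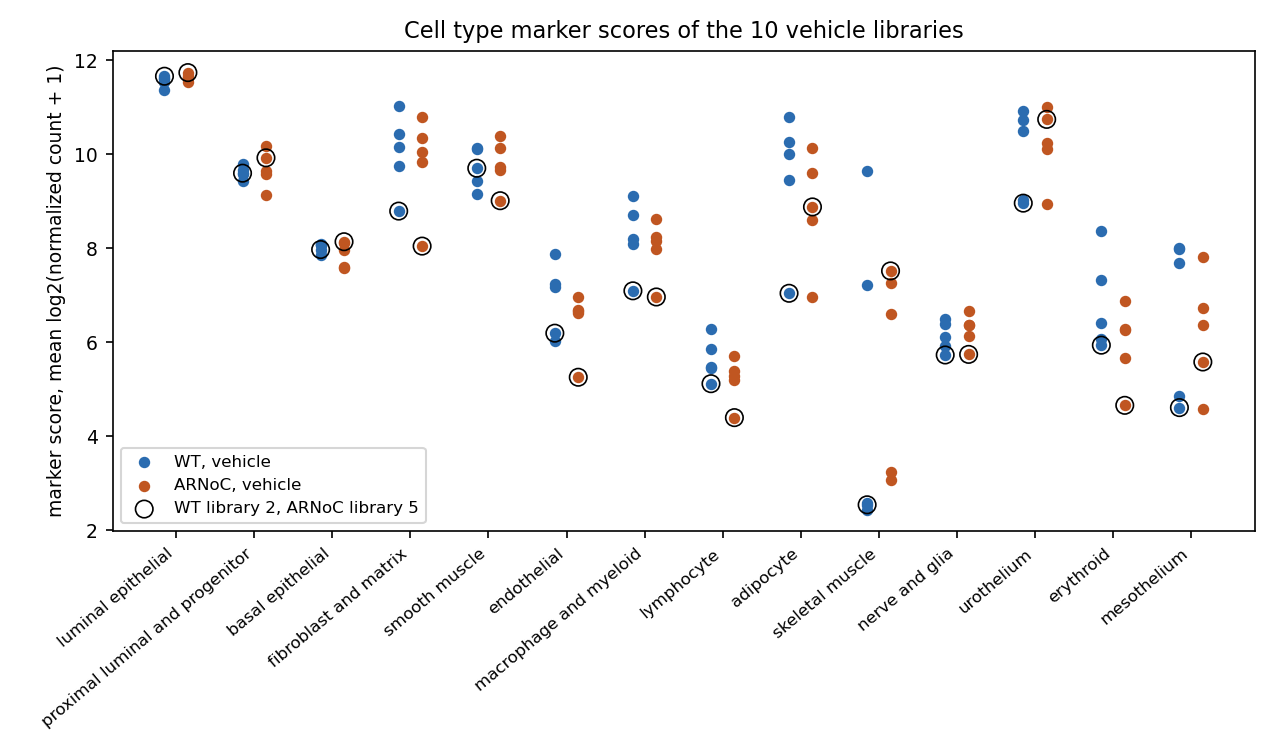
Marker score, the mean log2 of the normalized count plus 1, for 14 cell types in the 5 WT and 5 ARNoC vehicle libraries; rings mark WT library 2 and ARNoC library 5. The fibroblast and matrix scores of these 2, 8.79 and 8.04, are the lowest, and luminal epithelial scores lie between 11.4 and 11.7 in all 10 libraries.

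With the fibroblast and matrix score as a covariate all 49 genes kept their calls, and 66 genes were called. Col6a3, one of the 49, is itself a marker in that score. Leaving out the 2 stroma-poor libraries instead ended 17 calls, those of Evx1, Col6a3, RP23-329P9.12, Eya2, Il13ra1, Ttbk2, Prlr, Iqgap2, Zbtb16, Tesk2, Ror2, Col7a1, Spink5, Proc, Degs2, Muc19 and H2-Q10. That fit also has fewer libraries.

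The genotype difference was then set beside the one measured in the other 10 libraries, from males given testosterone. No library is shared between these comparisons, though the fit over 20 libraries gives them 1 estimate of spread. With testosterone 259 genes were called (1.77%). Of the 49 genes called with vehicle 48 had the same direction there, against 52.8% of all tested genes, and 24 were called in that direction (49%), 14 of the 23 lower and 10 of the 26 higher. Called in the opposite direction were 0. Prlr was the gene with the opposite sign (0.32 with vehicle, -0.19 with testosterone, adjusted p 0.176).

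The 4 distal Hoxa genes were all lower in ARNoC with testosterone too, and 3 of them were called. Hottip had 32.3, 29.5, 35.7, 35.2 and 37.4 normalized counts in WT and 4.25, 2.34, 2.34, 12 and 3.56 in ARNoC with testosterone. The groups did not overlap, and the difference of -2.60 (SE 0.40, adjusted p 0.0013) was close to that with vehicle. Hoxa13 had 387.6 to 473.1 in WT and 172.1 to 211.3 in ARNoC (-1.14, SE 0.13, adjusted p 8.68e-05). Hoxa11os passed there (-0.54, adjusted p 0.0266), and Evx1 did not (-2.01, SE 0.68, adjusted p 0.148).

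Col6a3 and Grik2 had larger fitted differences with testosterone. Col6a3 had 14570 to 27910 in WT and 2825 to 5008 in ARNoC (-2.28, SE 0.25, adjusted p 5.71e-05), against -1.32 with vehicle. The change in the difference did not pass the test of the interaction, with an adjusted p of 0.439. Grik2 had 101.5 to 165.6 in WT and 5.93 to 18.7 in ARNoC (-3.10, adjusted p 5.71e-05).

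Others were seen with vehicle and did not pass with testosterone. Txndc16 had 161.3 to 184.4 in WT and 138.0 to 193.2 in ARNoC, overlapping groups, with a difference of -0.13 (SE 0.10, adjusted p 0.566). Smad4 had 2336 to 2741 in WT and 2292 to 2573 in ARNoC (-0.06, adjusted p 0.845). Pdzk1 had 1192 to 1883 in WT and 1454 to 2716 in ARNoC (0.57, SE 0.15, adjusted p 0.0658). Of the 49 genes 34 had a smaller difference with testosterone, 22 of the higher and 12 of the lower. The 49 were picked by their difference with vehicle, which by itself makes a smaller difference in other libraries likely. This count therefore cannot tell whether testosterone lessens the difference.

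None of these shifts passed edgeR's test of the difference between the differences. The interaction gave 0 of 14640 genes (0%) with edgeR, with 1303 at an unadjusted p of 0.05 (8.9%). With DESeq2 it gave 24, which were not set against the 49 here. Of the 49, 14 had an unadjusted edgeR p under 0.05. The 49 were picked by the difference with vehicle, which enters this test, so that count cannot be read against the 8.9%. The smallest adjusted p with edgeR was 0.0719 over all genes and 0.14 among the 49, for Prlr. So a gene called with vehicle and not with testosterone, such as Txndc16 (edgeR interaction adjusted p 0.262), is not shown by edgeR to differ between them.

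When each set of 10 libraries was fitted on its own, with its own spread, 18 genes were called with vehicle, 163 with testosterone and 10 in both, all 10 in the same direction. These were 5730457N03Rik, Hottip, Hoxa13, Grik2, Wscd1, Tyw1, Eya2 and Gm7714, lower in ARNoC, and Gm12873 and H2-Q10, higher. Gm7714 was not among the 49 in the fit over 20 libraries (adjusted p 0.0746) and was named after its values were seen. With the testosterone libraries alone 23 of the 49 were called.

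**Figure D5:**
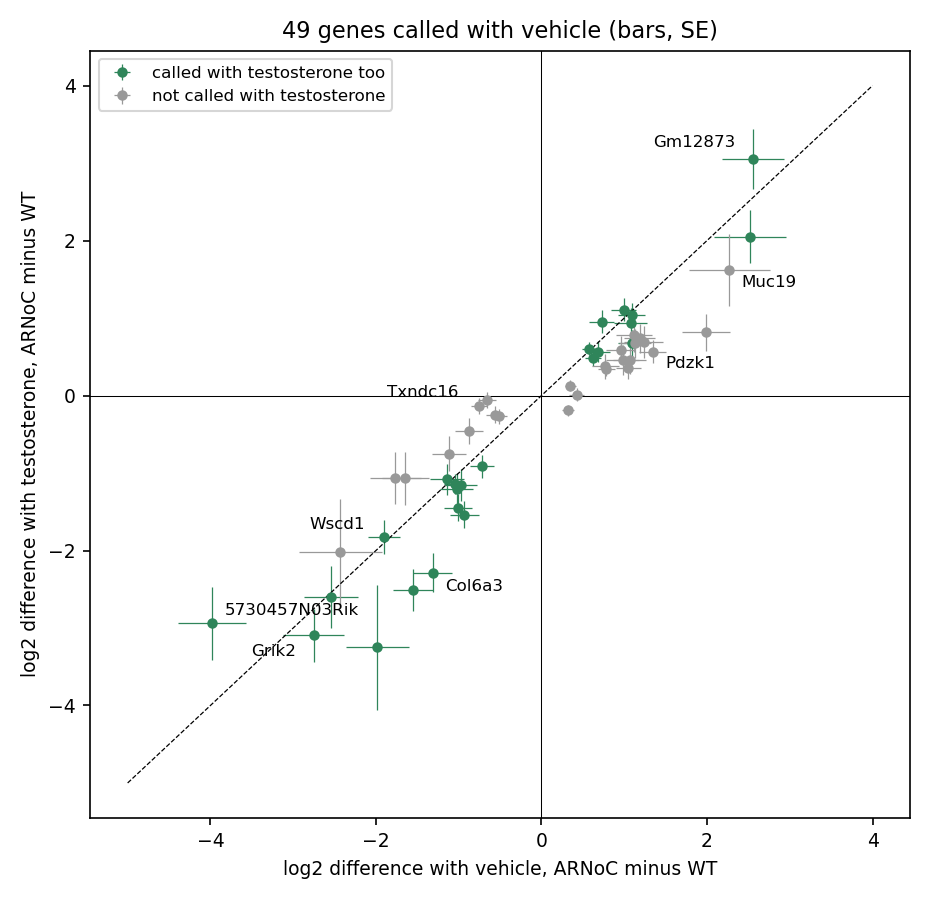
Log2 difference between ARNoC and WT with testosterone against that with vehicle for the 49 genes called with vehicle, with SEs; green points were called with testosterone too and the dashed line marks equal differences. Of the 49 points 48 lie in the quadrants of equal sign, and Col6a3 lies below the line.

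The called genes were spread over the genome apart from the Hoxa block. The whole X chromosome held 1 of 520, Il13ra1. The block gave chromosome 6 all 4 of its calls among 725 tested genes (0.552%), and chromosomes 13 and 18 had shares of 0.777% and 0.845%, from 4 and 3 genes. Coordinates were found for 48 of the 49, and 43 are protein coding.

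Start regions of the called genes were searched for steroid receptor motifs in RefSeq windows of 300 bases, found for 37 of the 49 genes. The half-site AGAACA, or TGTTCT on the other strand, occurred in 6 of their 47 windows (12.8%) and in 19% of all 32851. The windows were those of Txndc16, Il13ra1, Ttbk2, Lurap1l, Prlr and Slc16a12, with 1 half-site each. The full inverted repeat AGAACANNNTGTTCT, which contains both half-sites, occurred in 0 of the 47 and 3 of all windows (0.00913%).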

How the data were processed

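RNA of ventral prostate was sequenced from 20 libraries, 5 in each of 4 groups. Per the submitters' processing notes, reads were handled with FastQC 0.11.7, HISAT2, SAMtools 1.5, HTSeq and DESeq2 on mm10. For the annotation, strand setting and read filters, these notes say nothing. Raw counts by gene symbol form the deposited count table. The deposited signal values are normalized counts, each count divided by a size factor, and the deposited ratio values are those DESeq2 size factors. Their product gave the count back within 4.2e-09. Each column was matched to its label by name. Replicate numbers follow accession order.

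Raw counts were scaled by trimmed means of M-values and analysed in edgeR 4.0.16 (R 4.3.3), with 1 mean per group over all 20 libraries, with the quasi-likelihood F-test and Benjamini-Hochberg adjustment at 0.05 over the 14640 genes that passed the level rule. The common biological coefficient of variation was 0.209. SEs are the size of the log2 difference over the square root of F. The fit was also run on simulated counts with known changes, placed in genes averaging 50 or more in WT with vehicle. Of 50 genes changed at each size, 26 were called at 1.5-fold, 45 at 2-fold, 48 at 4-fold and 50 at 8-fold. Of 175 calls 6 were false. In the 20 pairs of vehicle libraries within a group the chi-square per degree of freedom was 8.73 or more. That is more scatter than sequencing a library again would give. Whether libraries shared an animal cannot be told from it. Scores were compared by exact permutation tests. Gene positions came from GENCODE M21 (mm10). Figures used matplotlib 3.10.9.

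Alternatives were DESeq2 1.42.0, limma 3.58.1 (voom and trend), other scalings and filters, robust dispersion, a stromal covariate, subsets of libraries and each library left out. The members, gene lists and tests were chosen with earlier results of these data known. Genes were named by a rule: 9 fixed genes, the 12 largest called differences in each direction among genes averaging 50 or more in the higher group, up to 3 called genes each way per list (or the 2 most abundant where none was called), and the Hoxa genes. Exceptions are stated beside them. A few genes within this rule are not reported here.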

Additional observations from a re-analysis of the deposited data

Results flagged for a closer look

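In 154 groups of 5 values, 7 had 1 library further from the rest than Dixon's 95% limit (ratio above 0.71), 4.55% where chance flags about 1 in 20. Among called genes, Doc2b was high in WT library 2, at 161.3 normalized counts against 135.9 to 140.8 in the other WT libraries. B4galnt2 was low in WT library 2, at 197.6 against 213.7 to 219.0. Hoxa13 was high in ARNoC library 4, at 1091 against 597.4 to 731.6, and Gm12873 was low there, at 541.9 against 1022 to 1204. Both values of that library lie toward WT.

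Among genes that were not called, Spink3 was high in ARNoC library 5, at 14440 against 3122 to 6393. Hoxa3 was low in ARNoC library 2, at 15.8 against 25.8 to 28.2. The endothelial score was low in ARNoC library 5, at 5.25 against 6.62 to 6.96.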

How the results depend on the processing

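The 49 calls depend on the fit more than their directions do. The 10 vehicle libraries alone gave 7 higher and 11 lower genes, 13 of them at least 2-fold apart. DESeq2 gave 69 higher and 60 lower, 24 for the interaction, and called 56 of its own genes with testosterone too. limma-voom gave 36 lower genes. With the stromal score as a covariate 35 were lower and 38 were called with testosterone too. The interaction gave 1 gene by limma-trend, 2 by total-count scaling and 2 without the level filter. A test against a 2-fold threshold left 4 genes. Leaving out 1 library gave 14 to 33 higher, 13 to 37 lower, 19 to 35 at least 2-fold apart, 0 to 1 for the interaction and 16 to 29 called with testosterone too. RLE scaling, the deposited size factors and robust dispersion kept 48 of the 49, and limma-trend and total-count scaling also 48. Of the 49 genes 11 were called in every alternative, and 0 reversed direction in any, which was likely because the alternatives reuse the same vehicle libraries. The fit of the 10 testosterone libraries alone, which called 23 of the 49, was chosen after seeing the data. No paired analysis was possible because the replicate numbers follow accession order and the labels carry no number that libraries share.

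Depth limits the low genes: 5730457N03Rik, Grik2, Evx1 and Cd200r2 rest on few counts in ARNoC. Genes whose libraries spread widely, such as Pbsn and Mki67, leave sizeable differences undetected.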
